A study of Mus musculus with 42 samples.

Results

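SOX2 and β-catenin occupancy were compared with each other in caudal epiblast-like cells that lacked T (also called Brachyury), the T-box factor of the primitive streak. The comparison used 6 of the 42 samples of the series, the 3 SOX2 and the 3 β-catenin libraries of T/BraKO cells, out of 30 libraries with a peak list. In each list the 20000 peaks with the best −log10 q were kept, overlapping peaks of the 6 libraries were merged into regions, and a region belonged to a factor when at least 2 of its 3 libraries called it. A region of both factors was termed shared. A region of 1 factor that no library of the other called was termed SOX2-only or β-catenin-only. The cells carried the genotype T/Bra-/- and came from the 129 strain line HM1. They were grown for 2 days in FGF and LGK974, which blocks WNT secretion, were then given the WNT agonist CHIR99021 in the same medium until day 3, and were collected at 72 h. WT and CdxKO cells (mutant for Cdx1, Cdx2 and Cdx4) of the same strain, medium and time served for comparison, as did the 3 LEF1 libraries of T/BraKO cells. Whether each mutant line was 1 clone is not given in the sources used here, so cell line and genotype cannot be told apart.

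SOX2 is a DNA-binding factor of pluripotent and neural progenitors. β-catenin carries the WNT signal to the nucleus but does not bind DNA by itself, and it reaches target genes through the TCF/LEF factors. In the caudal epiblast the WNT signal switches on feedback genes such as Axin2 and Sp5 and posterior genes such as the Cdx genes, while SOX2 holds the progenitor state. T acts alongside both in the primitive streak and mesoderm.

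A few windows of each class are printed to show the letters that the shares of words given further on were counted from. Windows reaching 100 bases to each side of the best summit of leading regions are printed on the plus strand of mm10. Capitals mark matches on either strand to a SOX word (CCNTTGT with A or T at N), a TCF/LEF word (CTTTGAN with A or T at N), an OCT word (ATGCAAAT), a CDX word (NNATAAA, where the first N is C or T and the next is A or C) or a T-box word (AGGTGTGA). The SOX word with T at N shares the letters CTTTG with the TCF/LEF word but differs at the next base, so the same stretch could not count for both. In windows of the same length around the start sites of 21911 protein-coding genes, a SOX word was found in 5.27%, a TCF/LEF word in 4.25%, an OCT word in 0.872%, a CDX word in 6.45% and a T-box word in 0.812%. A match is a description of the letters and not of binding. Stretches that differ from a word by a single base were not counted, so a window without a word can still hold a similar stretch.

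A leading shared region lay 247506 bp from the start of 5530401A14Rik. The T promoter and the upstream region of Pou5f1, which encodes OCT4, are shown with it because they held SOX and TCF/LEF words together.
Shared, nearest start 5530401A14Rik, chr11:81613073-81613273: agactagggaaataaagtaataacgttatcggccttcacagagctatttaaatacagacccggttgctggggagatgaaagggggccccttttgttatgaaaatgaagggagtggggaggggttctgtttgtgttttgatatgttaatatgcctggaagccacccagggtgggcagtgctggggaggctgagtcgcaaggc
Shared, T promoter, chr17:8434085-8434285: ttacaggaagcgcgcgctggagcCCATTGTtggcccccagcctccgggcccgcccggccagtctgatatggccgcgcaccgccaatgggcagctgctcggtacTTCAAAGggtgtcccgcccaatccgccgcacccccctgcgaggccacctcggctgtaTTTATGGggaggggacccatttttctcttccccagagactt
Shared, upstream of Pou5f1, chr17:35505024-35505224: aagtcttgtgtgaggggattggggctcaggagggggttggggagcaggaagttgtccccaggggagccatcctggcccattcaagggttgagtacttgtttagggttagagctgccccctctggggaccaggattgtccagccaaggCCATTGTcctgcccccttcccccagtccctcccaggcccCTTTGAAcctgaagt

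The leading SOX2-only windows lay in introns, with the starts of Ebf1 and Abca4 nearest. A region downstream of Sox2 is shown with them as the best-ranked SOX2-only region of the pluripotency genes.
SOX2-only, Ebf1, chr11:44841788-44841988: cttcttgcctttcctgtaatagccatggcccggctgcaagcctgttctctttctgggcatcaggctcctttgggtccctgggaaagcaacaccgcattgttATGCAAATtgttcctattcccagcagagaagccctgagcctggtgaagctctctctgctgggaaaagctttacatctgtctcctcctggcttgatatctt
SOX2-only, Abca4, chr3:122145472-122145672: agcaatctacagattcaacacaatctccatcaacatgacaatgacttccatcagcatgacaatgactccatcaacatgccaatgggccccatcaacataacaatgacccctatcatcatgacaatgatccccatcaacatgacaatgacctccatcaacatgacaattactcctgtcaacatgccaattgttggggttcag
SOX2-only, downstream of Sox2, chr3:34653957-34654157: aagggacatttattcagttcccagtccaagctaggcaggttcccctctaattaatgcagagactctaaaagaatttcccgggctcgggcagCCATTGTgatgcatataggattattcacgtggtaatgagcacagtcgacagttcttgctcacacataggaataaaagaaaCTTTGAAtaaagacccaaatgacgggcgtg

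The β-catenin-only windows had the starts of Slc2a9 (10086 bp) and Msrb3 (148181 bp) nearest. A region upstream of Eomes, a T-box gene of the early streak, is the best-ranked one of the streak genes. Each of the 3 held a TCF/LEF word and no SOX word.
β-catenin-only, upstream of Slc2a9, chr5:38513129-38513329: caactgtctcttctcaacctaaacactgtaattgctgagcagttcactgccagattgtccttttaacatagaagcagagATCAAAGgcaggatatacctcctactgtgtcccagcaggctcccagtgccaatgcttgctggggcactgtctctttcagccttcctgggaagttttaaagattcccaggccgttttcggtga
β-catenin-only, nearest start Msrb3, chr10:120722871-120723071: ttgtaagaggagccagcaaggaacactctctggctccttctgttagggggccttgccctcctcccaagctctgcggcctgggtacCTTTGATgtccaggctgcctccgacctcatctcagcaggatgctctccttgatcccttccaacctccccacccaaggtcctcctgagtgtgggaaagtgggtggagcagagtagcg
β-catenin-only, upstream of Eomes, chr9:118468287-118468487: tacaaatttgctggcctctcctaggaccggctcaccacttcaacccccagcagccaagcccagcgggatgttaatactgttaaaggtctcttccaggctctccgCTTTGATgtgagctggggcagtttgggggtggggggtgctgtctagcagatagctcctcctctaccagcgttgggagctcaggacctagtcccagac

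In the Ebf1 window the OCT word began 1 base after the summit. The Abca4 and 5530401A14Rik windows held none of the words.

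The 6 lists differed in length. The SOX2 lists held 266820, 104221 and 26940 peaks and the β-catenin lists 132907, 61413 and 37687. Peak 20000 had a −log10 q of 7.67, 6.87 and 3.26 in the SOX2 libraries and of 7.77, 6.07 and 5.35 in the β-catenin libraries. SOX2 replicate 3 stood apart with the shortest list and the lowest −log10 q at this point, and results are therefore also given without it. The lists give no read depth, and a rank cannot tell fewer occupied cells from less occupancy per cell.

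At the T locus itself (chr17:8434423-8442496), 2 shared regions lay within 10000 bp of the gene, and each factor favoured a different one. The T promoter region (chr17:8433343-8434783, summit 238 bp upstream of the start) ranked 6571, 1713 and 1123 in the SOX2 libraries and 150, 727 and 87 in the β-catenin libraries. The region 4310 bp upstream (chr17:8429481-8430588) ranked 741, 1186 and 979 for SOX2 and 9814, 4593 and 6460 for β-catenin. The ranks of the factors did not overlap at either region, and the order was opposite. Occupancy was tested by limma on −log2 rank, where a difference of 1 is a rank 2 times nearer the top. The promoter was higher for β-catenin (SOX2 minus β-catenin −3.46, SE 0.81, adjusted p = 0.00199, limma) and the upstream region higher for SOX2 (2.80, SE 0.64, adjusted p = 0.00178, limma). Of the 2351 regions tested in this way, 19.5% were higher for SOX2 and 16.7% for β-catenin. Peaks within the gene body numbered 1, 0 and 1 in the full SOX2 lists and 3, 1 and 1 in the full β-catenin lists. The deleted part of T is not given in the sources used here, so these peaks check nothing about the mutation. Tbx6, a mesoderm gene under T, had 5 merged regions within 10000 bp, but none was called in at least 2 libraries of either factor. Whether this differed from WT cells was not tested.

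The 6 lists merged into 71431 regions. SOX2 had 10528 regions and β-catenin 12681. Of these, 4854 were shared, 4055 were SOX2-only and 5427 were β-catenin-only. Further, 1619 SOX2 regions were called in a single β-catenin library and 2400 β-catenin regions in a single SOX2 library. Shared regions made up 46.1% of the SOX2 regions and 38.3% of the β-catenin regions. The Jaccard index, the regions called in both libraries over those called in either, was 0.191 to 0.259 between SOX2 libraries, 0.270 to 0.322 between β-catenin libraries and 0.113 to 0.189 between factors. Every pair within a factor was more alike than every pair between factors. The excess within over between was 0.101, and its one-sided exact permutation p of 0.1 over 10 assignments of the libraries is the smallest this design allows. Without SOX2 replicate 3 the counts were 3370 shared, 1995 SOX2-only and 6600 β-catenin-only regions. SOX2-only regions also fell to 1987 without SOX2 replicate 2, and β-catenin-only regions to 3092 and 3160 without β-catenin replicates 1 and 3, since the 2 libraries left then both had to call a region.

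A factor-only region was not always free of the other factor in the full lists. Of the SOX2-only regions, 2255 (55.6%) overlapped no peak of any full β-catenin list and 52 (1.28%) overlapped a peak of all 3. Of the β-catenin-only regions, 2839 (52.3%) overlapped no peak of any full SOX2 list and 78 (1.44%) overlapped a peak of all 3. Few lay beside a region of the other factor, as 5.57% of SOX2-only and 5.82% of β-catenin-only regions had a region of the other factor within 1000 bp.

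Sharing followed rank. Among SOX2 regions with a mean rank up to 500, 356 of 387 (92.0%) were shared, and among those ranked beyond 10000 the share was 29.1%. For β-catenin the same shares were 89.5% (376 of 420) and 21.3%. In the SOX2 libraries the median rank of shared regions was 3002, 3549 and 3649, against 5855, 7053 and 7344 for SOX2-only regions. In the β-catenin libraries it was 3715, 3459 and 4135 for shared and 8195, 7404 and 7501 for β-catenin-only regions. Shared regions were also wider, with a median of 631 bp against 312 bp for SOX2-only and 360 bp for β-catenin-only regions. The classes rest on these ranks, which are therefore a description.

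The leading shared regions were high in every library. The best by mean rank lay 13732 bp upstream of Ube2d2a, a ubiquitin-conjugating enzyme, with ranks of 14, 6 and 25 for SOX2 and 9, 5 and 16 for β-catenin. The region near 5530401A14Rik ranked 4, 2 and 1 for SOX2 and 42, 48 and 38 for β-catenin. These regions and those nearest to Kcnj2 (777814 bp) and Med13l (494930 bp) were also called in all 3 SOX2 and all 3 β-catenin libraries of both WT and CdxKO cells and in all 3 LEF1 libraries.

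The leading SOX2-only regions lay in introns and at 1 promoter. The best lay in an intron 224571 bp from the start of Ebf1, a transcription factor of B cells and neurons, and ranked 50, 56 and 89. The promoter region of Nrarp, a feedback inhibitor of Notch (44 bp from the start), ranked 401, 176 and 14. The regions at Abca4 (52, 335 and 38), Igfbpl1 (275, 297 and 145) and Git1 (135, 332 and 250) completed the first 5. In 3 of them, at Ebf1, Nrarp and Igfbpl1, the window held the OCT word, which 5.28% of all SOX2-only windows held. None of the 5 windows held a SOX word, against 32.4% of all SOX2-only windows. In the Ebf1 window, however, the letters gcattgt beside the OCT word differ from the SOX word by a single base. The missing word thus does not show that these windows lack a similar stretch. The Ebf1, Nrarp and Igfbpl1 regions overlapped no peak of a full β-catenin list, whereas Abca4 and Git1 overlapped a peak of 1 and 2 of them.

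Of the leading β-catenin-only regions none was a promoter. The best, 11270 bp upstream of the taste receptor gene Tas1r2, ranked 86, 112 and 128. It was followed by regions with the starts of Slc2a9 (258, 346 and 365), Msrb3 (310, 341 and 405), Tmem163 (261, 394 and 430) and Arid3a (359, 276 and 486) nearest. All 5 windows held a TCF/LEF word, against 49.7% of all β-catenin-only windows.

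SOX words lay more often under SOX2 summits and TCF/LEF words more often under β-catenin summits, in every library. Among the best 20000 peaks, a SOX word lay within 100 bp of the summit in 20.1, 25.4 and 24.1% of SOX2 peaks and in 13.5, 12.9 and 12.3% of β-catenin peaks. A TCF/LEF word lay there in 11.8, 12.3 and 14.2% of SOX2 peaks and in 31.6, 28.1 and 36.6% of β-catenin peaks. The 3 libraries of a factor did not overlap those of the other in either share. In windows moved by 1000 bp the SOX share was 6.86 to 7.45% and the TCF/LEF share 8.28 to 8.48% in these libraries. The mean SOX share was 23.2% ± 2.7 (SD, n = 3) for SOX2 and 12.9% ± 0.64 for β-catenin, a difference of 10.3 percentage points. For TCF/LEF the means were 12.8% ± 1.3 and 32.1% ± 4.3, a difference of −19.4 points. Each gave a two-sided exact permutation p of 0.1 (0.25 after adjustment over 5 motifs), the smallest that 3 against 3 libraries allow. Without SOX2 replicate 3 the differences were 9.86 and −20.1 points. The T-box word (0.945, 0.81 and 1.02% against 1.09, 0.99 and 1.40%), the CDX word (means 13.9% and 14.2%) and the OCT word (4.22% and 3.94%) overlapped between the factors, with exact permutation p-values of 0.2, 0.7 and 0.5.

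**Figure D1:**
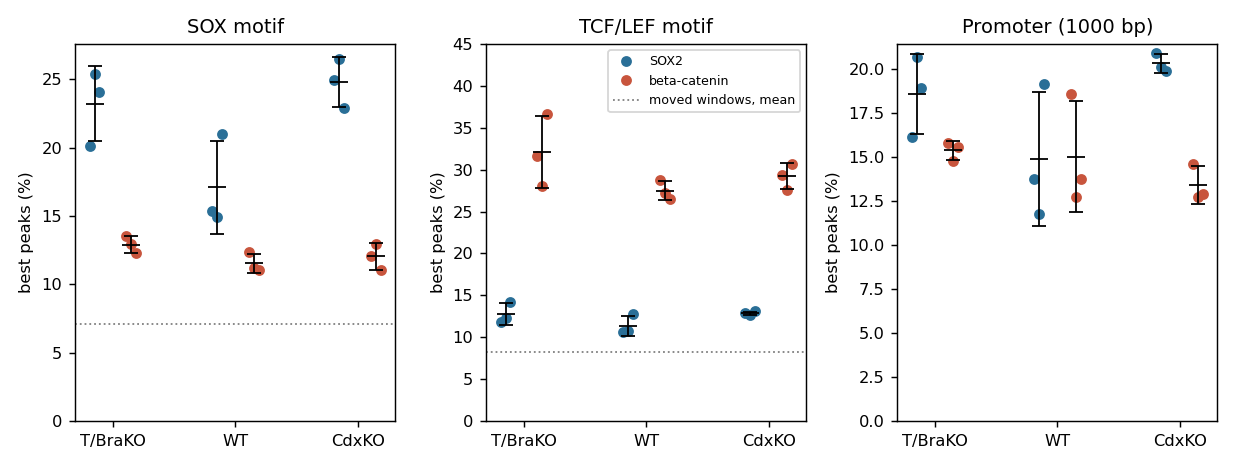
Percentage of the best 20000 peaks of each library with a SOX word or a TCF/LEF word within 100 bp of the summit, or with a summit within 1000 bp of a start site, by genotype; points are libraries, bars the mean ± SD (n = 3) and the dotted line the mean of windows moved by 1000 bp. In T/BraKO the SOX share was 20.1 to 25.4% for SOX2 and 12.3 to 13.5% for β-catenin, and the TCF/LEF share 11.8 to 14.2% and 28.1 to 36.6%.

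The same order held in WT and CdxKO cells. The SOX share was higher for SOX2 by 5.56 points in WT and by 12.8 points in CdxKO, and the TCF/LEF share higher for β-catenin by 16.1 and 16.3 points. Over the 3 genotypes, with the factor permuted within genotype, the mean differences of 9.54 points for SOX and −17.3 points for TCF/LEF each gave an exact permutation p of 0.00025, the smallest that 8000 assignments allow (0.00075 after adjustment over 6 measures). The T-box share was lower for SOX2 by 0.49 points on average (adjusted exact permutation p = 0.001), although it overlapped between the factors in T/BraKO alone. The OCT share was higher for SOX2 by 0.47 points (adjusted exact permutation p = 0.0354), a call that was lost without SOX2 replicate 3 (0.0774), without β-catenin replicate 2 (0.0666), over the full lists (0.884) and with same-numbered libraries as pairs (0.0797, exact sign flips). For the CDX share the mean difference was 0.58 points (0.291). None of the 6 differences was shown to depend on T. The factor difference in T/BraKO minus that in WT and CdxKO was 1.14 points for SOX (exact permutation p = 0.737), −3.12 points for TCF/LEF (0.196) and 0.38 points for T-box (0.126), and adjusted values over the 6 measures were 0.587 or higher.

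Counts of the words rose towards the summit of the matching factor. At SOX2-only regions the SOX word occurred 14.2 and 14.0 times per 100 regions in the 50 bp before and after the SOX2 summit, against 2.00 at 450 to 500 bp before it, while the TCF/LEF word occurred 1.48 and 1.55 times beside the summit and between 1.41 and 2.22 times in the other bins. At β-catenin-only regions the TCF/LEF word occurred 21.9 and 23.3 times per 100 regions beside the β-catenin summit against 2.54 at 450 to 500 bp before it, and the SOX word 2.30 and 1.90 times against 1.58. Shared regions held both. Around their SOX2 summits the SOX word occurred 12.0 times on either side and around their β-catenin summits 8.43 and 8.84 times, while the TCF/LEF word occurred 9.25 and 8.74 times around SOX2 summits and 12.4 and 13.9 times around β-catenin summits. The summits of the factors nearly coincided. At the 2351 regions called in all 6 libraries, the median distance between summits was 23 to 25 bp for pairs of β-catenin libraries, 25 to 27 bp for pairs of SOX2 libraries and 30 to 37 bp for pairs of different factors, so that every pair of different factors lay further apart than every pair of the same factor.

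**Figure D2:**
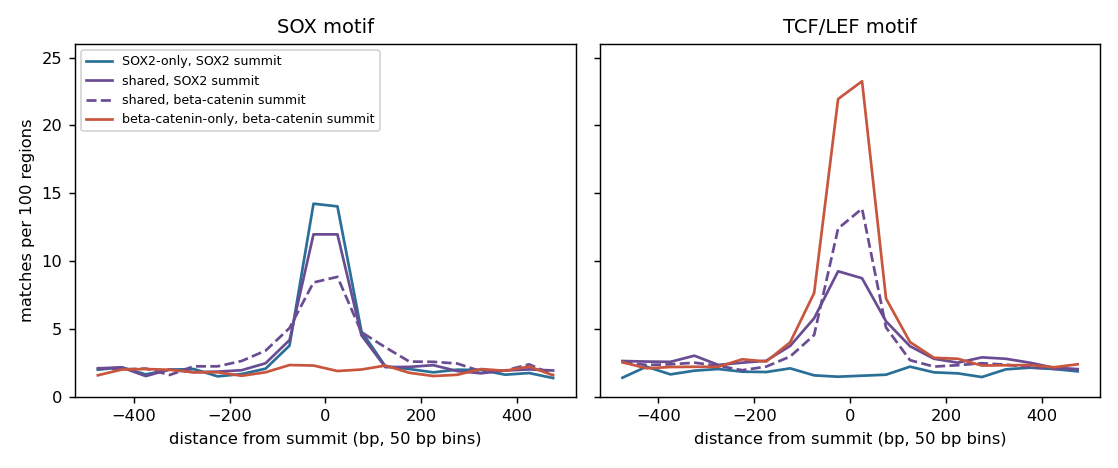
Matches to the SOX word and the TCF/LEF word per 100 regions in 50 bp bins, by distance in bp from the SOX2 or β-catenin summit, for SOX2-only, shared and β-catenin-only regions. The SOX word peaks at 14.2 beside SOX2-only summits and stays near 2 at β-catenin-only summits, and the TCF/LEF word peaks at 23.3 beside β-catenin-only summits and stays near 1.5 at SOX2-only summits.

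By class, a SOX word lay within 100 bp of the best summit in 32.4% of SOX2-only regions (95% Wilson interval 30.9 to 33.8), 26.8% of shared regions (25.6 to 28.1) and 7.90% of β-catenin-only regions (7.22 to 8.65). In windows moved by 1000 bp it was found in 7.32, 6.70 and 7.04% of them. A TCF/LEF word was found in 5.72% of SOX2-only regions (5.05 to 6.48), 28.8% of shared regions (27.6 to 30.1) and 49.7% of β-catenin-only regions (48.4 to 51.0), against 8.06, 8.20 and 8.66% in moved windows. The intervals of the SOX share at β-catenin-only regions and in their moved windows (6.39 to 7.75) overlapped, and those of the TCF/LEF share at SOX2-only regions and in their moved windows (7.27 to 8.94) did not. Both words together lay in 6.63% of shared, 1.60% of SOX2-only and 3.87% of β-catenin-only windows. In 51.0% of shared, 63.5% of SOX2-only and 46.3% of β-catenin-only windows neither was found. The OCT word lay in 7.0, 5.28 and 3.70% of shared, SOX2-only and β-catenin-only windows, against 1.59, 1.09 and 1.25% of moved ones. The T-box word lay in 1.03, 0.789 and 1.36% against 1.07, 0.863 and 0.755%. Intervals cover counting error only, since regions of the same libraries are not replicates, and class membership rests on the ranks but not on the letters. Without SOX2 replicate 3 the SOX shares were 34.8, 29.6 and 9.12% and the TCF/LEF shares 4.61, 26.4 and 49.3% for SOX2-only, shared and β-catenin-only regions.

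SOX2-only regions lay closer to genes. A summit within 1000 bp of an annotated start of any gene was found in 28.1% of SOX2-only regions (26.8 to 29.5), 14.3% of shared regions (13.4 to 15.3) and 15.3% of β-catenin-only regions (14.4 to 16.3). The median distance to a protein-coding start was 15080 bp for SOX2-only, 31051 bp for shared and 30885 bp for β-catenin-only regions. Introns held 32.7, 40.3 and 39.0% and intergenic sequence 36.7, 43.4 and 42.8% of SOX2-only, shared and β-catenin-only summits, and exons outside promoters 2.54, 2.02 and 2.82%. GC content of the windows hardly differed, with medians of 50.2, 49.3 and 50.2%. Per library, 16.1, 20.7 and 18.9% of the best SOX2 peaks and 15.8, 14.8 and 15.6% of the best β-catenin peaks were promoter peaks, so every SOX2 library lay above every β-catenin library. The difference of 3.20 points gave a two-sided exact permutation p of 0.1, the smallest possible. Over the 3 genotypes it was 3.33 points (adjusted exact permutation p = 0.0354), made up of 3.20 points in T/BraKO, −0.13 points in WT and 6.92 points in CdxKO, and with same-numbered libraries as pairs the call was lost (adjusted exact permutation p = 0.0762, sign flips). The promoter difference depended on the depth of the lists, since over the full lists it was −0.16 points in T/BraKO and −0.64 points over the genotypes (exact permutation p-values 1 and, adjusted, 0.845). The promoter share itself differed with rank for both factors. For SOX2 regions it was 16.0% at a mean rank up to 500 and 25.6% beyond 10000, and for β-catenin 11.2% and 18.8%. SOX2 lay above β-catenin in both ranges.

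**Figure D3:**
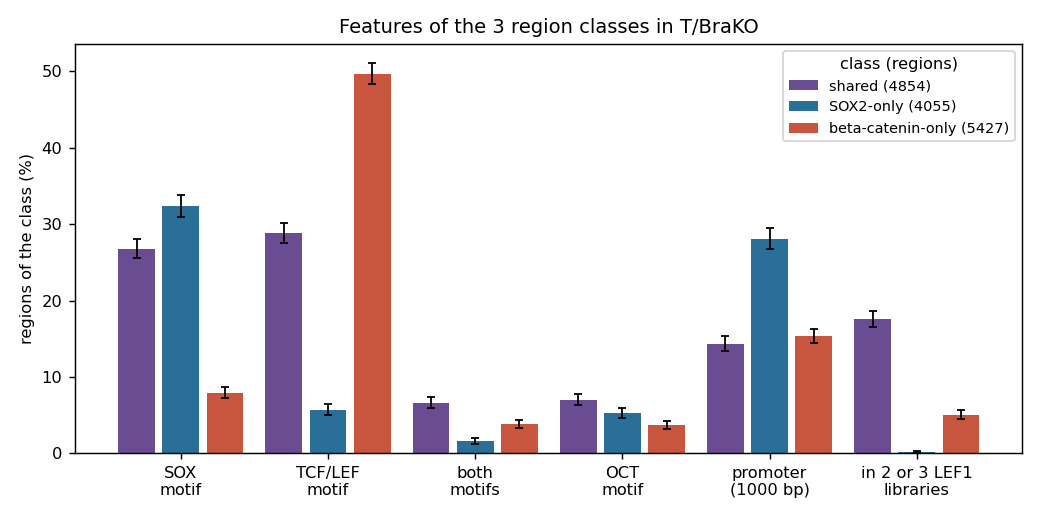
Percentage of shared (4854), SOX2-only (4055) and β-catenin-only (5427) regions of T/BraKO cells with each feature, with 95% Wilson intervals as error bars. SOX words and promoters are most frequent in SOX2-only regions (32.4 and 28.1%), TCF/LEF words in β-catenin-only regions (49.7%), and calls in 2 or 3 LEF1 libraries in shared regions (17.6%).

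LEF1, a member of the TCF/LEF family, was called more often at regions with β-catenin than at SOX2-only regions. Among the best 20000 LEF1 peaks of T/BraKO cells, a single LEF1 library overlapped 17.6 to 23.3% of shared regions, 7.87 to 9.88% of β-catenin-only regions and 0.888 to 1.95% of SOX2-only regions, and the ranges did not overlap. At least 2 of the 3 LEF1 libraries called 854 shared regions (17.6%), 272 β-catenin-only regions (5.01%) and 7 SOX2-only regions (0.173%). No SOX2-only region was called in all 3, against 363 shared and 65 β-catenin-only regions. The LEF1 lists held 924506, 858843 and 281971 peaks. A TCF/LEF word lay in 15.3, 17.8 and 16.9% of their best 20000 peaks. Shared regions were wider, which gives them more bases to overlap, and they also ranked nearer the top. The part of width and of rank was not tested. Without SOX2 replicate 3 the calls in at least 2 LEF1 libraries were 20.4, 5.47 and 0.1% of shared, β-catenin-only and SOX2-only regions.

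The regions of a class were called more often by libraries of the matching factor in the other genotypes, although many were not called again. A WT SOX2 library called 31.8% ± 14.9 (SD, n = 3) and a CdxKO SOX2 library 57.3% ± 2.5 of the SOX2-only regions of T/BraKO cells, whereas WT and CdxKO β-catenin libraries called 6.41% ± 1.9 and 6.25% ± 1.2. The β-catenin-only regions were called by 45.3% ± 7.1 and 45.6% ± 2.1 in WT and CdxKO β-catenin libraries and by 6.04% ± 3.4 and 10.5% ± 0.54 in WT and CdxKO SOX2 libraries. For both classes, every library of the matching factor lay above every library of the other. When the classes were built anew in CdxKO cells, 46.3% of the SOX2-only regions of T/BraKO fell on SOX2-only regions and 0.173% on β-catenin-only ones. In WT cells these shares were 19.9 and 0.518%, where the libraries gave 1994 SOX2-only and 2656 shared regions in all. No WT region of either factor was met by 71.4% of SOX2-only, 56.3% of β-catenin-only and 18.4% of shared regions, and no CdxKO region by 40.9, 54.0 and 13.5%. Of the β-catenin-only regions, 33.6% fell on β-catenin-only regions of WT and 29.9% on those of CdxKO. The WT SOX2 libraries differed among themselves, as replicates 1, 2 and 3 called 24.3, 22.2 and 49.0% of the SOX2-only regions. Their lists held 1008922, 289925 and 205833 peaks. A SOX word lay in 15.3, 14.9 and 21.0% of their best peaks, against 20.1, 25.4 and 24.1% in T/BraKO and 25.0, 26.5 and 22.9% in CdxKO. Whether the lower match in WT came from these libraries or from the genotype was not tested.

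Rank was then compared at the 2351 regions called in all 6 libraries. By limma on −log2 rank (adjusted p under 0.05), 458 regions (19.5%) were higher for SOX2 and 392 (16.7%) higher for β-catenin, and the median difference over all regions was 0.18. SOX2 thus took 53.9% of the calls. The balance between the factors was not stable. Over the full lists SOX2 took 42.8% of the calls (525 against 702, median −0.27), without SOX2 replicate 1 46.4% (450 against 519, median −0.15), and on quantile-normalised fold enrichment 49.0% (320 against 333). Without SOX2 replicate 3 the calls were 476 and 443. For the regions with the lowest p in favour of SOX2, the nearest starts were those of Klf13, Zeb2 (619091 bp away), Tcf7, Pipox and Rhbdl3 (35029 bp away). A region 18328 bp from the start of Klf13, a Krüppel-like factor, ranked 7, 14 and 2 for SOX2 and 2428, 2006 and 1107 for β-catenin, a difference of 8.24 (SE 0.73, adjusted p = 4.35e-08, limma). The region 3563 bp from the start of Tcf7, which encodes the TCF/LEF factor TCF1, ranked 60, 92 and 23 against 10038, 4123 and 15115 (7.41, SE 0.71, adjusted p = 1.04e-07, limma). The Tcf7 promoter itself was β-catenin-only, as given below. None of the 5 windows in favour of SOX2 held a SOX or TCF/LEF word, and 4 held the OCT word (all but Rhbdl3). No LEF1 library called the Klf13, Zeb2 and Tcf7 regions. In favour of β-catenin the nearest starts of the first 5 were those of Foxb1, Zfp703 (143762 bp away), 1700001O22Rik (16909 bp away), Cenpx and Cdx1. The region 92051 bp from Foxb1, a forkhead factor, ranked 4, 2 and 3 for β-catenin and 1082, 986 and 1468 for SOX2 (−8.65, SE 0.64, adjusted p = 8.29e-09, limma). The promoter of the posterior gene Cdx1 ranked 17, 12 and 11 for β-catenin and 6468, 2086 and 2246 for SOX2 (−7.90, SE 0.67, adjusted p = 2.31e-08, limma). All 5 windows held a TCF/LEF word and all 5 regions were called in all 3 LEF1 libraries.

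The words and LEF1 calls, which did not enter the ranks, were counted over all regions that passed. Each window was centred on the summit of the best-ranked library, so the ranks set which factor's summit was searched. At shared regions each word was more frequent around summits of the matching factor, as given above. The shares of words are therefore a description. A SOX word lay in 36.5% of the regions higher for SOX2 (32.2 to 41.0), 14.8% of those higher for β-catenin (11.6 to 18.7) and 30.5% of the others (28.2 to 32.9). A TCF/LEF word lay in 11.8% (9.15 to 15.1), 59.7% (54.8 to 64.4) and 28.7% (26.5 to 31.1). The OCT word, held by 4 of the first 5 SOX2 regions, lay in 9.61% (7.23 to 12.7), 8.93% (6.49 to 12.2) and 7.40% (6.18 to 8.83). At least 2 LEF1 libraries called 13.1, 62.2 and 21.1% of them. Promoters made up 17.0, 10.7 and 12.9%. The intervals cover counting error only.

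**Figure D4:**
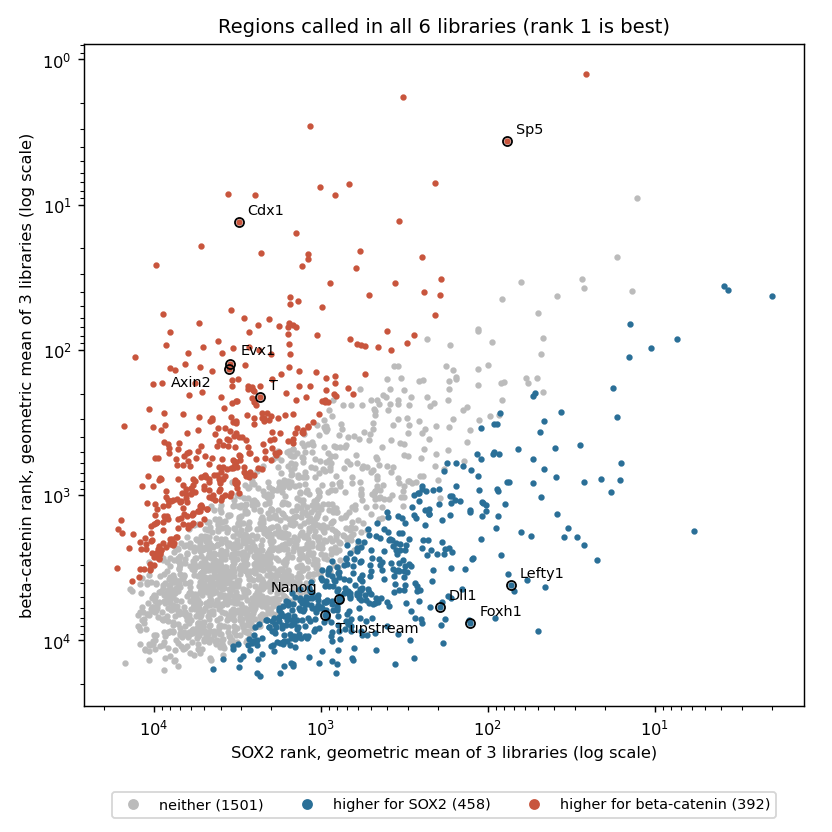
Geometric mean rank over the 3 SOX2 libraries (x, log scale) and over the 3 β-catenin libraries (y, log scale) of the 2351 regions called in all 6 libraries of T/BraKO cells, with rank 1 at the right and top. Blue points (458) were higher for SOX2 and red points (392) higher for β-catenin by limma, and the T promoter and the region upstream of T lie on opposite sides.

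Genes were then grouped by pathway. Within 10000 bp of a gene, 12.0% of all 21938 protein-coding genes had a shared region, 14.7% a SOX2-only region and 14.1% a β-catenin-only region, and every list below had higher shares of shared regions than that. Median gene length was 17.4 kb over all genes, 34.7 kb in the WNT list and between 5.14 and 14.1 kb in the others.

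Of the 28 genes of the WNT pathway and its feedback, 18 (64.3%) had a shared, 9 (32.1%) a SOX2-only and 12 (42.9%) a β-catenin-only region, and 35 of their 83 regions were shared. The promoter of Sp5, a direct WNT target, ranked 80, 68 and 84 for SOX2 and 3, 4 and 4 for β-catenin, with fold enrichments of 40.2, 58.1 and 29.7 and of 185, 162 and 97. The first start-site region of Axin2, the negative feedback scaffold of the pathway, ranked 2067, 5229 and 4184 against 288, 79 and 109 (−4.72, SE 0.69, adjusted p = 1.93e-05, limma). The promoter of Fzd10, a WNT receptor, ranked alike, at 65, 164 and 80 for SOX2 and 74, 114 and 82 for β-catenin (−0.10, SE 0.65). A second Fzd10 region, 3775 bp from the start, was higher for β-catenin. It ranked 6386, 4434 and 2894 against 431, 541 and 234 (−3.52, SE 0.66, adjusted p = 0.000271, limma). The promoter of Znrf3, a ubiquitin ligase that removes WNT receptors, was β-catenin-only with ranks of 423, 324 and 470 and overlapped no peak of a full SOX2 list. That of Sfrp2, a secreted WNT inhibitor, was SOX2-only with ranks of 2579, 1819 and 13897. Lef1 carried both kinds, as the region 8004 bp upstream was higher for SOX2 (493, 113 and 826 against 3426, 1286 and 15186) and the region 4374 bp upstream higher for β-catenin (15732, 878 and 1212 against 304, 205 and 106). At Tcf7 the region 3563 bp from the start was higher for SOX2, as given above. The Tcf7 promoter was β-catenin-only, with ranks of 2342, 1325 and 628, and overlapped a peak of 2 full SOX2 lists. Of 22 regions of these genes in all 6 libraries, 9 (40.9%) were higher for β-catenin and 4 (18.2%) for SOX2. Over all regions these shares were 16.7 and 19.5%.

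Caudal epiblast and Hox genes had the most β-catenin-only regions, at 18 of 25 genes (72.0%), with shared regions at 16 (64.0%) and SOX2-only regions at 7 (28.0%). Neighbouring Hox genes could count the same region, as Hoxb8 and Hoxb9 did for chr11:96271580-96273287, so these gene counts are not independent. The intronic Cdx2 region ranked 326, 1062 and 1596 for SOX2 and 116, 154 and 263 for β-catenin (−2.29, SE 0.71, adjusted p = 0.0145, limma). A region 2060 bp upstream of Evx1, a homeobox gene of the posterior streak, ranked 991, 4799 and 9201 against 85, 195 and 117 (−4.82, SE 0.76, adjusted p = 4.37e-05, limma). The shared region upstream of Grsf1 ranked 56, 243 and 111 against 46, 125 and 71. The promoter of Hoxb1, an early Hox gene, went the other way with 174, 121 and 30 for SOX2 against 449, 710 and 433 (2.59, SE 0.71, adjusted p = 0.00689, limma). The promoter of Meis2, a Hox cofactor, was β-catenin-only at 1413, 791 and 2189 and overlapped a peak of 2 full SOX2 lists, and a region 9962 bp upstream of Hoxc9, at a Hoxc10 start, was SOX2-only at 3342, 2706 and 8727. Of 16 regions in all 6 libraries, 6 (37.5%) were higher for β-catenin and 1 (6.25%) for SOX2, against 16.7 and 19.5% of all regions. With the replicate block the counts were 7 for β-catenin and 3 for SOX2, against 481 and 603 of all 2351 regions in that fit.

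Primitive streak and mesoderm genes, where T acts, had shared regions at 11 of 24 genes (45.8%), β-catenin-only regions at 10 (41.7%) and SOX2-only regions at 5 (20.8%). Wnt8a, a WNT ligand of the streak, had a shared region with ranks of 472, 469 and 403 for SOX2 and 188, 231 and 297 for β-catenin. An intronic region of Wnt3, the ligand that starts the streak, ranked 466, 432 and 134 against 625, 1474 and 546 (1.41, SE 0.70, adjusted p = 0.119, limma). A second Wnt3 region, 2964 bp from the start, was higher for β-catenin. It ranked 2537, 4837 and 4065 against 405, 400 and 428 (−3.16, SE 0.64, adjusted p = 0.000534, limma). The Eomes region was β-catenin-only at 1664, 966 and 779 and was called by all 3 β-catenin libraries of both other genotypes where no WT or CdxKO SOX2 library called it, but it overlapped a peak of 2 full SOX2 lists of T/BraKO cells. A region 10209 bp downstream of the start of Msgn1, a presomitic mesoderm factor, was SOX2-only and called in 2 libraries, at 3802 and 3057. A region near Dll1, a Notch ligand, was higher for SOX2 at 173, 82 and 513 against 3524, 6622 and 8610 (4.92, SE 0.72, adjusted p = 2.08e-05, limma). Of 13 regions in all 6 libraries, 3 (23.1%) were higher for β-catenin and 2 (15.4%) for SOX2, near the 16.7 and 19.5% of all regions.

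Shared regions lay at 21 of 25 pluripotency genes (84%), SOX2-only regions at 13 (52.0%) and β-catenin-only regions at 6 (24.0%). The promoter of Lin28a, an RNA-binding regulator, ranked 92, 117 and 126 for SOX2 and 443, 242 and 385 for β-catenin (1.64, SE 0.64, adjusted p = 0.0477, limma). The Pou5f1 region shown above ranked 143, 126 and 300 against 525, 518 and 793 (1.77, SE 0.65, adjusted p = 0.0373, limma). On quantile-normalised fold enrichment both calls were lost (adjusted p = 0.292 and 0.116, limma). Another Pou5f1 region, 1961 bp upstream, ranked 83, 100 and 132 against 993, 1451 and 1483 (3.64, SE 0.63, adjusted p = 0.000132, limma). The promoter of Nanog ranked 901, 820 and 643 against 4085, 3440 and 9930 (2.73, SE 0.66, adjusted p = 0.00261, limma). The region 3652 bp downstream of the Sox2 start was SOX2-only at 342, 322 and 719, although its window held a TCF/LEF word beside the SOX word, and a β-catenin-only region (6356, 5058 and 6953) lay 2948 bp downstream of the same start. The best β-catenin-only region of the list, within Esrrb, ranked 5767, 1753 and 7940. Klf4, a naive pluripotency factor, had a promoter region that was higher for β-catenin (2587, 2281 and 5459 against 687, 461 and 841). Of 18 regions in all 6 libraries, 7 (38.9%) were higher for SOX2 and 2 (11.1%) for β-catenin, against 19.5 and 16.7% of all regions. On quantile-normalised fold enrichment the counts were 3 and 2, against 320 and 333 of all 2351 regions in that fit.

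Regions of each class lay at 11 of 25 neural genes (44.0%). The region 8361 bp downstream of the start of Gbx2, a posterior neural homeobox gene, ranked 76, 95 and 187 for SOX2 and 372, 389 and 1240 for β-catenin (2.35, SE 0.69, adjusted p = 0.0106, limma). The region 4873 bp upstream went the other way, at 747, 886 and 1578 against 10, 7 and 6 (−7.08, SE 0.65, adjusted p = 5.52e-08, limma). An intronic region of Pax3, a gene of the dorsal neural tube, ranked 892, 1171 and 272 against 1697, 2152 and 2263. A region near the proneural gene Neurog2 was SOX2-only (3544, 2136 and 8974), and the promoter of Nkx6-1, a ventral neural tube gene, was β-catenin-only (483, 417 and 524). Of 9 regions in all 6 libraries, 1 (11.1%) was higher for each factor, both at Gbx2, against 19.5% (SOX2) and 16.7% (β-catenin) of all regions. With the replicate block 2 were higher for each, with the Pax3 region added for SOX2 (adjusted p = 0.0246, limma) and a Hes3 region for β-catenin (adjusted p = 0.0329, limma). Of all 2351 regions, the block fit called 603 for SOX2 and 481 for β-catenin. That fit did not weigh the spread of ranks at a region. The Hes3 region ranked 3593, 1787 and 19251 for SOX2 and 1349, 974 and 3799 for β-catenin.

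Of 18 Nodal and BMP genes, 10 (55.6%) had a shared region and 7 (38.9%) each of the other classes. The region 1976 bp upstream of the ligand gene Nodal ranked 2412, 3135 and 1555 for SOX2 and 227, 275 and 326 for β-catenin (−3.06, SE 0.64, adjusted p = 0.000789, limma). The inhibitor gene Lefty1 went the other way, at 35, 158 and 70 against 2655, 3872 and 7059 (5.84, SE 0.70, adjusted p = 1.84e-06, limma). So did the promoter of Foxh1, the DNA-binding partner of the Nodal SMADs, at 97, 175 and 122 against 6463, 6298 and 10734 (5.90, SE 0.64, adjusted p = 5.67e-07, limma). A region near Id3, a BMP target, ranked 3003, 1934 and 587 against 686, 779 and 974. In the intron of Smad6, an inhibitory SMAD, a β-catenin-only region (chr9:63958258-63958768, ranks 1876, 1517 and 1237) ended just before a SOX2-only region (chr9:63958827-63959399, ranks 6629, 1699 and 4745), the former with a TCF/LEF word and the latter with a SOX word. The region upstream of Skil, a SMAD corepressor, was SOX2-only at 2008, 5500 and 2043. Of 8 regions in all 6 libraries, 2 (25.0%) were higher for SOX2 and 1 (12.5%) for β-catenin, against 19.5 and 16.7% of all regions.

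**Figure D5:**
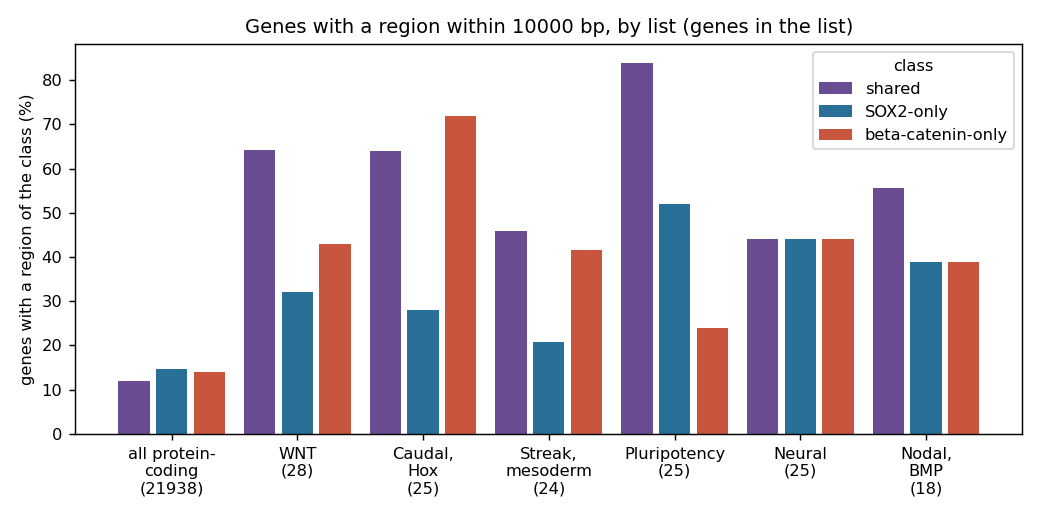
Percentage of genes with a shared, SOX2-only or β-catenin-only region within 10000 bp, for all 21938 protein-coding genes and 6 gene lists (number of genes below each name). The lists lie above the 12.0, 14.7 and 14.1% of all genes, with β-catenin-only regions ahead in caudal and Hox genes (72.0%) and SOX2-only regions ahead of them in pluripotency genes (52.0 against 24.0%).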

How the data were processed

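ChIP-seq peak lists of SOX2 and β-catenin in T/BraKO cells were compared, with those of WT and CdxKO cells and of LEF1 beside them. Per the labels and methods, reads were single-end, and the authors processed them with nf-core chipseq (Trim Galore trimming, BWA alignment to mm10, filtering), calling narrow peaks with MACS2 separately by library. The control input of each call is not given in the sources used here. For each peak, the deposited lists give the authors' fold enrichment (a ratio over the local background), −log10 p and −log10 q, a whole-number score made from the −log10 q, and the summit offset in bp. They hold no read counts, so the depth is unknown and no floor was computed. Of the 42 samples, 12 have no list.

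The 20000 peaks with the highest −log10 q per library were merged where they overlapped by any base. Promoters were summits within 1000 bp of an annotated start of any gene (GENCODE on GRCm38), and words were sought within 100 bp of summits. Shares were compared by two-sided exact permutation tests over libraries, with Benjamini-Hochberg adjustment, and ranks by limma 3.58.1 (R 4.3.3, with Python 3.11.15, numpy 2.4.6, pandas 2.3.3 and scipy 1.17.1) on −log2 rank at the regions in all 6 libraries, checked on simulated data. Per the methods, the triplicates were made in separate experiments. Same-numbered SOX2 and β-catenin libraries deviated together at those regions (correlations of 0.16, 0.33 and 0.37 across regions, each over 0.1), and the numbers were taken to pair them. Alternatives were 5000 best peaks, full lists, ranking by fold enrichment, summits within 250 bp, other windows, quantile-normalised fold enrichment, pairing, and leaving out each library.

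Members, words and gene lists were chosen with earlier results of these data known. The named genes were T, the 5 best regions per class and per direction of the limma test, and the best members of each list. The further list members were Axin2, Lef1, Cdx2, Evx1, Dll1, Nanog, Klf4, Lefty1 and Foxh1, and the second regions of Pou5f1, Gbx2, Fzd10 and Wnt3. They and the printed windows of T, Pou5f1, Sox2 and Eomes were chosen after their values were seen. No window was printed from chromosome 18 or from a UTR, which left out those of Ube2d2a and Tas1r2. Another leading shared region is not reported here.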

Additional observations from a re-analysis of the deposited data

How the results depend on the processing

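The SOX and TCF/LEF share differences in T/BraKO and over the genotypes kept their direction under every alternative run. With 5000 best peaks there were 1653 shared, 1985 SOX2-only and 2216 β-catenin-only regions, and with the full lists 10517, 11184 and 8420. Leaving out a library gave 1987 to 4741 SOX2-only and 3092 to 6600 β-catenin-only regions. The shared part of the SOX2 regions was 40.3, 39.1 and 44.0% with 5000 peaks, full lists and summits within 250 bp (35.4 to 54.5% without 1 library), and that of the β-catenin regions 37.0, 42.5 and 36.7% (26.6 to 46.4%). Regions higher for SOX2 by limma numbered 175 with 5000 peaks, and those higher for β-catenin 145 with 5000 peaks and 702 with full lists. The promoter difference reversed with full lists to −0.16 points in T/BraKO and −0.64 points over the genotypes. Its T/BraKO value minus that of the other genotypes was 0.71 points with full lists, 0.046 ranked by fold enrichment and −1.25 to 1.02 without 1 library. The CDX difference reversed to 1.26 points with full lists (−1.24 to 0.59 without 1 library), and over the genotypes it was −0.091 with 5000 peaks and 1.84 with full lists (adjusted exact permutation p = 0.0135). The OCT difference was −0.016 to 0.57 points without 1 library. Over the genotypes it was 0.050 with full lists and 0.37 to 0.57 without 1 library, and its T/BraKO value minus that of the others was 0.31 with full lists and −0.58 to 0.0042 without 1 library. The TCF/LEF value of the same kind was 2.13 with 5000 peaks. The cause of these changes was not tested. With the replicate block, limma called 603 and 481 regions, and the share differences (10.3 points for SOX, −19.4 for TCF/LEF, 3.20 for promoters) had exact permutation p-values of 0.25 or higher, the smallest that 3 pairs allow. Over the genotypes the promoter (3.33 points) and OCT (0.47 points) calls were lost with the block, and the SOX, TCF/LEF and T-box calls were kept. Whether the numbers pair the libraries was checked in T/BraKO alone. Of the list members, regions of Pax3, Hes3, Esrrb, Lin28a, Rarg, Znrf3, Hoxb8 and Hoxb9 passed with the block alone, and no list member that had passed was lost. Among list members the adjusted p-values with the block followed the size of the difference alone. Differences of −1.94 at Axin2 and Dll3 both gave 0.00638 (limma with the block). The block calls thus did not weigh the spread of ranks at a region and are no check of it.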
